A study of Mus musculus with 6 samples.

Results

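The genes described here are the factors that carry mRNA out of the nucleus and the exon junction proteins that mark spliced mRNA, chosen by name as a list of 40 mouse symbols. Of these, 39 had counts among the 9822 genes of the deposited tables, and Magohb was not analysed here. The libraries are polyA RNA of purified mouse platelets from males of the BalB/c background. The 3 mutant pools came from mice of genotype Nxf1+/C587R, with 1 normal Nxf1 allele and 1 that swaps a cysteine for an arginine, and the 3 control pools from wild-type littermates. A pool joined suspensions of 1 genotype in which over 98% of flow cytometry events were CD41+ platelets, and each of 3 preparation days gave 1 mutant and 1 wild-type pool. Both groups otherwise carry no stated treatment or allele, and the wild-type libraries also serve another series. The labels give neither the age of the mice nor how many animals went into a pool.

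As background, a finished mRNA leaves the nucleus bound to the export receptor, a dimer of the proteins of Nxf1 and Nxt1. The TREX complex, made of the THO core, RNA helicases and adaptors such as Alyref, loads the receptor onto mRNA, and TREX-2 links this step to the nuclear pore. At the outer face of the pore Gle1 activates the helicase of Ddx19 genes, which strips proteins from the mRNA. The nuclear cap-binding complex holds the 5′ end, and the exon junction complex sits upstream of splice junctions until translation removes it. Platelets have no nucleus, so their mRNA was made and exported in megakaryocytes before the platelets were shed.

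The altered position lies in the last part of the Nxf1 coding sequence. In a coding sequence of 618 codons, the one altered in C587R is on chromosome 19 at 8770261 to 8770263 (GRCm38, plus strand), in exon 20 of 21 by the GENCODE annotation. The coding sequence around it is shown because it is the site that separates the genotypes. It is the reference sequence, 59 bases joined across exons 19 and 20 (chr19:8769157-8770291), with the cysteine codon in capitals.

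Nxf1 around the C587R codon: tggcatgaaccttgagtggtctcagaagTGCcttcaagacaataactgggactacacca

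Reads that fall within the RNA of near-identical genes cannot be told apart, which bears on the helicase pair Ddx19a and Ddx19b. Their coding sequences, neighbours on the minus strand of chromosome 8, share an identical run of 275 bases. It is joined from exons 8 and 9 of each gene, at chr8:110978601-110979205 in Ddx19a and chr8:111010854-111011454 in Ddx19b. Of all 50-base windows of Ddx19a transcripts, 33.3% also occur in Ddx19b.

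Run shared by Ddx19a and Ddx19b: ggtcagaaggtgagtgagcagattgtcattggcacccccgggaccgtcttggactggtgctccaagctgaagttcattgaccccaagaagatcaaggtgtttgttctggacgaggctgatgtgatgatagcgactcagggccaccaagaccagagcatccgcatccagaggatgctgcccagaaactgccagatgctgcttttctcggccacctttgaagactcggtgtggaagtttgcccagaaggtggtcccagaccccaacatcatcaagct

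The other helicase pair is more distinct. The longest run common to the coding sequences of Ddx39b (chr17:35244171-35244196) and Ddx39 (chr8:83719847-83719872, both plus strand) is 26 bases, and no 50-base window of either coding sequence occurs in the other.

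Longest run shared by Ddx39b and Ddx39: atggatgtcctgtgccaggccaagtc

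Each library held 25189231 to 29421549 counts, of which the 39 members took 9573 to 11008. The 7 platelet markers were abundant, at a summed 37899 to 42067 in mutant and 29452 to 35881 in wild-type libraries in CPM (counts scaled to a TMM-adjusted library total, the unit of levels below). They did not move together. Calls of markers are by edgeR with genotype as the only term unless stated. Ppbp, Itgb3 and Tubb1 rose, Gp9 fell, and Pf4, Itga2b and Gp1bb were not called. Summed erythroid markers stood at 31513 and 35714 CPM in the day 1 libraries and at 3968 to 4559 CPM on the other days. Markers of other blood cells were present in both genotypes, and their sums were not tested. Summed T cell markers (4 of 5 measured) were at 6.34 to 7.88 CPM in mutant and 8.56 to 9.66 CPM in wild-type libraries, without overlap. Cd3e was not analysed here, and 0 of the 4 were called with genotype as the only term. B cell markers (6 of 6) were at 106 to 144 and 129 to 181 CPM, and Cd79a and Igkc fell. NK markers (2 of 3) were at 5.93 to 7.57 and 4.60 to 5.94 CPM, and myeloid markers (4 of 6), mostly Lyz2, which rose, at 1778 to 2091 and 1163 to 1602 CPM. With the preparation day as a block, edgeR called 2 T cell and 4 B cell markers lower, and 1 NK and 1 myeloid marker higher. That fit called 5 platelet markers higher and 1 lower, and 2 erythroid markers higher and 1 lower, where it called 40% of all genes. Nucleated blood cells express the export and exon junction genes too, and the part of these cells in the results that follow was not tested. In bulk RNA, fewer cells of a type and less RNA per cell cannot be told apart.

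Most of the export and exon junction genes did not differ detectably between genotypes at this depth. Of the 39 members, Gle1 and Ythdc1 rose, Ncbp2 fell and 36 did not pass (edgeR quasi-likelihood test, Benjamini-Hochberg adjusted p over all 9822 genes, threshold 0.05). That is 7.69% of the members, where 22.1% of all genes were called, 12.9% higher and 9.16% lower. Another 6 members had an unadjusted p of less than 0.05. The share of all genes at that cut is not reported here, so this count has no background. For 13 members (33.3%) the genotypes had no overlap in CPM, beside 36.3% of all genes.

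Within days, 1 mutant library can be set against 1 wild-type library, and the fit with the preparation day as a block called 5 members higher and 9 lower. This is 35.9% of the members, where the same fit called 40% of all genes, 22% higher and 18% lower. The 9 lower were Ncbp2, Thoc1, Chtop, Zc3h11a, Eny2, Ddx19a, Magoh, Rbm8a and Casc3. The 5 higher were Gle1, Ythdc1, Cetn2, Mcm3ap and Rbm15. DESeq2 with the same block kept 3 of the higher members (Gle1, Ythdc1 and Cetn2) and 2 of the lower (Ncbp2 and Zc3h11a), at a background of 17.4% higher and 10.1% lower among 9060 genes.

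**Figure D1:**
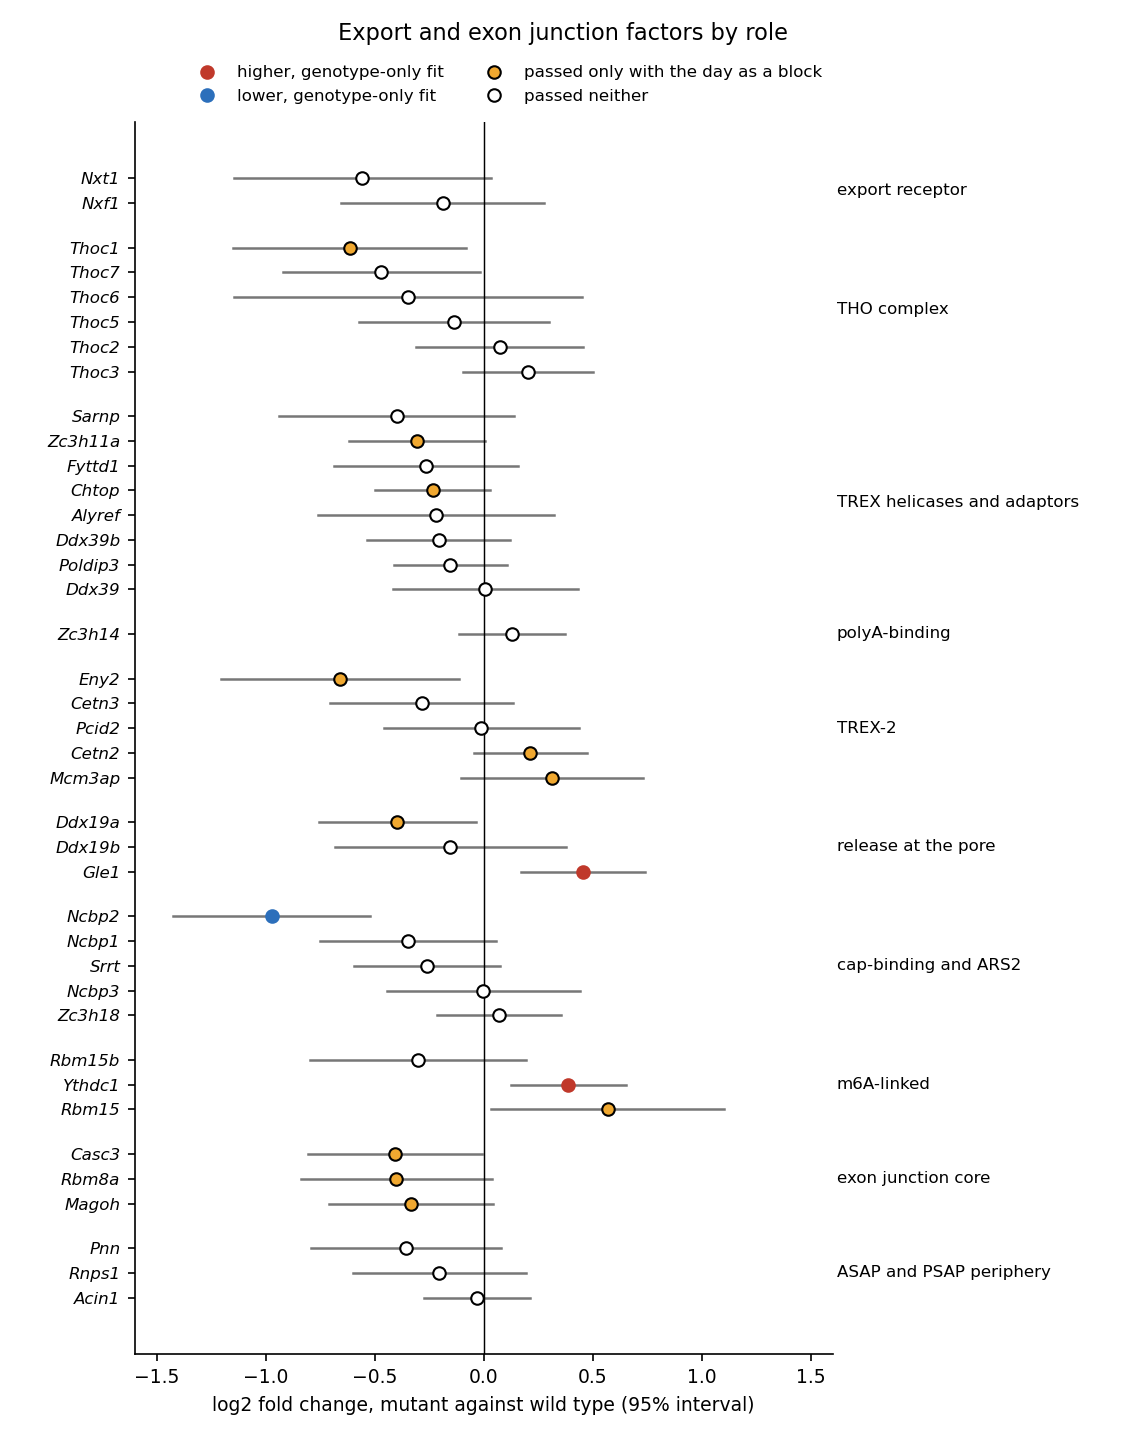
Log2 fold change of each of the 39 measured members, mutant against wild type (x axis), by role, with its 95% interval from the edgeR genotype-only fit. Blue and red points passed that fit (Ncbp2 lower at -0.97, Gle1 and Ythdc1 higher at 0.46 and 0.39), and orange points passed only with the preparation day as a block.

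Most fitted differences were small and below 0. The log2 fold change was below 0 for 29 members and above 0 for 10, with a median of -0.22, beside -0.04 over all genes, of which 54.3% were below 0. No member reached a log2 fold change beyond 1 in either direction. Of all genes, 60.8% had 1 direction on all 3 days, as had 26 members. The mutant value was lower on all 3 days for 19 members (48.7%, beside 30.7% of all genes) and higher on all 3 days for 7 (17.9%, beside 30.1%). The medians within days 1, 2 and 3 were -0.11, -0.23 and -0.16, where all genes had -0.03, -0.03 and -0.01. Most of the list was scarce, with a mean level under 5 CPM in 28 members. These 28 had a median log2 fold change of -0.29, beside -0.14 for the 5555 genes of that level, and the 11 more abundant members had 0.07, beside 0.10 for 4267 genes. The share of genes called also differed by level. Without the block edgeR called 1 of the 28, beside 10.7% of genes of that level, and 2 of the 11, beside 36.8%. With the block it called 9 of the 28, beside 22.9%, and 5 of the 11, beside 62.3%. The limit of 5 CPM was chosen after the values were seen.

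**Figure D2:**
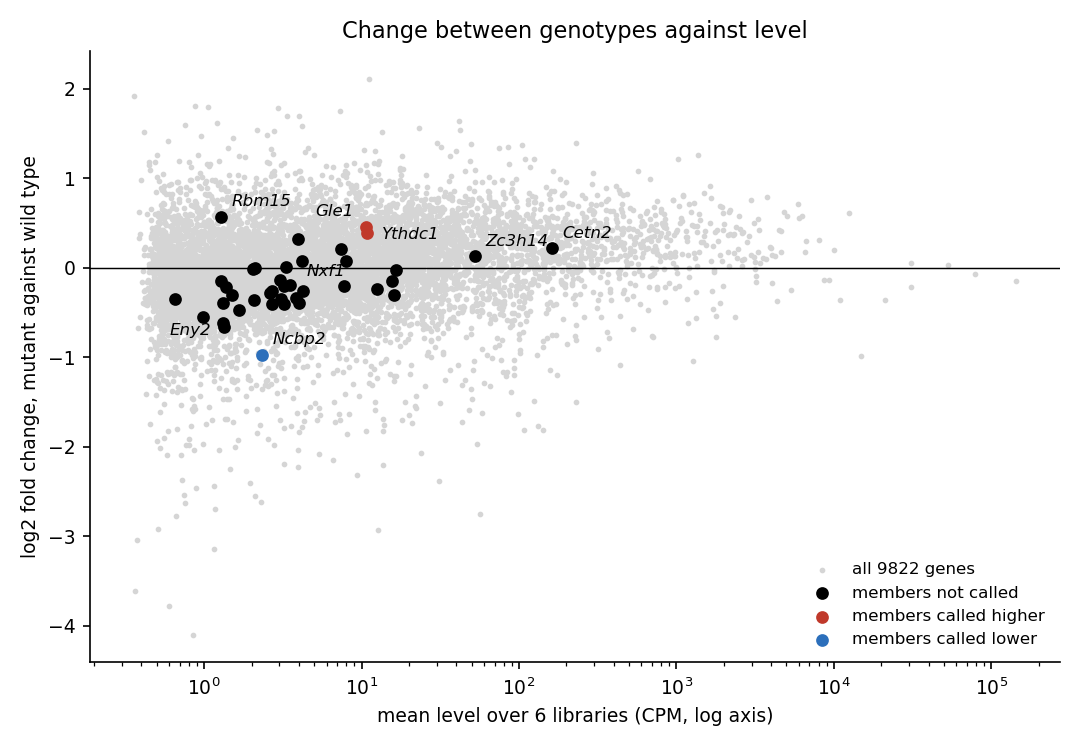
Log2 fold change, mutant against wild type (y axis), against the mean level over 6 libraries in CPM (x axis, log scale) for all 9822 genes in grey and the 39 members in colour. Of the members, 28 lie below 5 CPM and all lie between -0.97 and 0.57 on the y axis, and Cetn2 and Zc3h14 stand alone at the abundant end.

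The members differed widely in level. Per gene length, as CPM per kilobase (RPKM), the centrin gene Cetn2 was highest in wild-type platelets at 127 ± 17.5 RPKM (SD, n = 3). It was followed by Zc3h14, whose protein binds polyA tails, at 11.99 ± 1.35 RPKM and by Magoh, of the exon junction core, at 7.05 ± 1.18 RPKM. The lowest were Ddx19b at 0.199 ± 0.0285, Rbm15 at 0.314 ± 0.0776 and Ncbp3 at 0.334 ± 0.0537 RPKM (SD, n = 3 each), and the median member stood at 1.51 RPKM, beside 1.44 RPKM over all genes. Cetn2 alone held 40.8% to 46.0% of the members' counts in mutant and 35.8% to 41.8% in wild-type libraries. The members' summed share of a library was 0.0387 ± 0.00160% for the mutant and 0.0392 ± 0.00260% for the wild type (SD, n = 3 each), a difference within the spread between libraries (two-sided exact permutation p = 0.8, adjusted p = 0.8 over 4 shares, smallest possible p 0.1). Without Cetn2 in the sum the shares were 0.0217 ± 0.00193% (mutant) and 0.0238 ± 0.00286% (wild type). They were lower in the mutant on all 3 days (exact permutation p = 0.4, adjusted p = 0.533 over the same 4 shares). The 10 genes most abundant over all 6 libraries together, 1 fixed set, had a share of 37.0% to 38.8% in the mutant and 41.6% to 45.1% in the wild type. Without those genes in the denominator the members' shares were 0.0624 ± 0.00233% and 0.0689 ± 0.00484%, lower in the mutant on all 3 days (exact permutation p = 0.1, adjusted p = 0.2 over the same 4 shares).

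**Figure D3:**
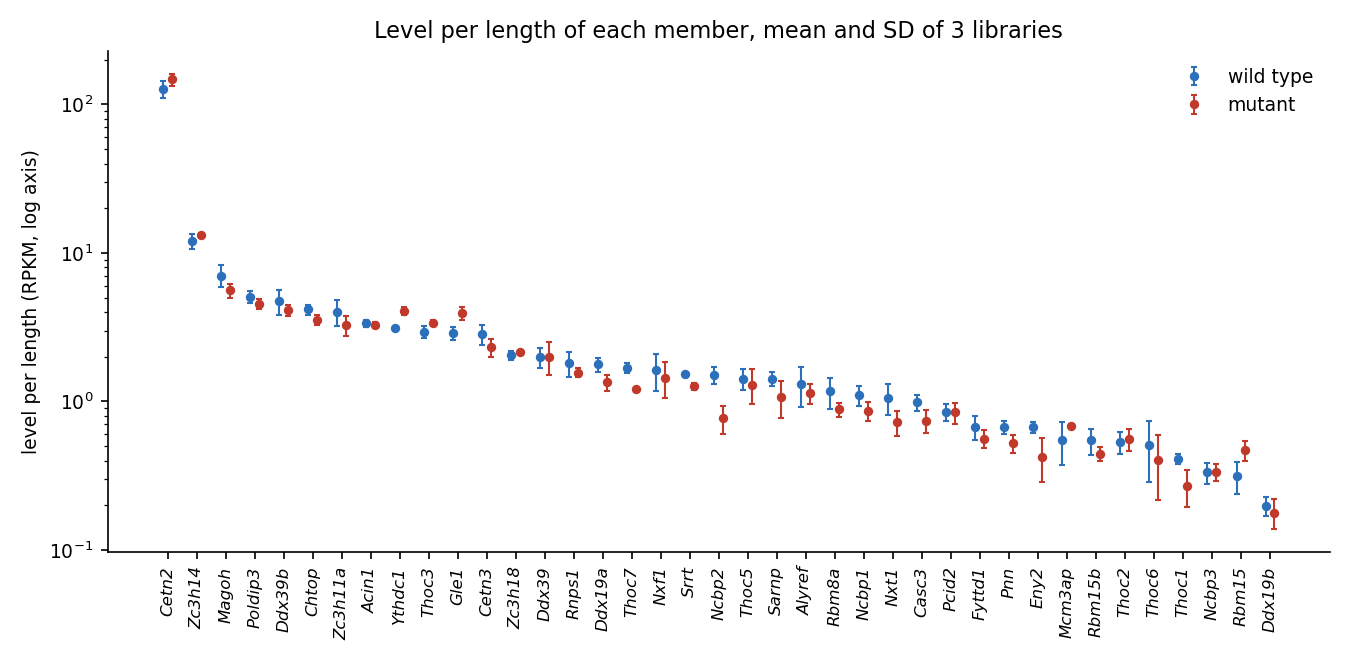
Level per gene length of the 39 members in RPKM (y axis, log scale), ordered by the wild-type mean, with mean and SD of 3 libraries per genotype (blue wild type, red mutant). Cetn2 stands more than an order of magnitude above most members, and Ncbp2, Gle1 and Ythdc1 move in rank from 20 to 26, 11 to 7 and 9 to 6 between wild type and mutant.

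The export receptor pair was scarce and did not pass the test. Nxf1 (Entrez 53319, chromosome 19, 8757103 to 8770910) had 2.95, 2.61 and 4.30 CPM in the mutant libraries of days 1, 2 and 3 and 3.17, 3.08 and 4.94 CPM in the wild-type libraries. The groups overlapped, and day 3 was highest in both genotypes. The log2 fold change was -0.19 (95% interval -0.65 to 0.28, edgeR adjusted p = 0.604). Leaving out wild-type replicate 3 turned it to 0.08. A gene-level count does not tell the changed allele from the normal one, so it does not check the genotype labels. Nxt1, the small partner that stabilises the receptor, was at 0.820, 0.939 and 0.630 CPM in mutant and 0.850, 1.29 and 1.36 CPM in wild-type platelets on days 1, 2 and 3. The 2 genotypes were close on day 1 and apart on day 3, where the within-day log2 ratio was -1.11, and the log2 fold change was -0.56 (95% interval -1.15 to 0.03, edgeR adjusted p = 0.18).

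None of the 6 THO genes was called without the block, and Thoc1 and Thoc7 had an unadjusted p of less than 0.05. Thoc1, a core subunit, was at 0.708, 1.23 and 1.19 CPM in mutant and 1.66, 1.46 and 1.65 CPM in wild-type libraries of days 1, 2 and 3. The genotypes did not overlap, with mutant day 1 the lowest. Its log2 fold change was -0.62 (SE 0.26, edgeR adjusted p = 0.0947), and it passed with the block (adjusted p = 0.0192 by edgeR, 0.258 by DESeq2). Exons of Thoc1 overlap those of Usp14 on the other strand over 24.3% of their length. Since the libraries were made without strand information, per the labels' kit, the value of Thoc1 is uncertain. Thoc7 was also lower on all 3 days without overlap, at 1.35 to 1.45 CPM in mutant and 1.78 to 2.08 CPM in wild-type libraries (log2 fold change -0.47, edgeR adjusted p = 0.135, and 0.0502 with the block). Thoc3 was at 7.57 to 8.17 CPM against 6.10 to 7.28 CPM, without overlap in the other direction (log2 fold change 0.20, edgeR adjusted p = 0.355). Thoc2, Thoc5 and Thoc6 had log2 fold changes of 0.07, -0.14 and -0.35 with overlapping groups, and Thoc6 rested on 7 to 33 counts per library. It shares 14.2% of its exonic bases with Hcfc1r1 on the other strand, which makes its count uncertain too.

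No TREX helicase or adaptor was called without the block, and none of the 8 had an unadjusted p of less than 0.05. Log2 fold changes lay between -0.40 in Sarnp and 0.01 in Ddx39. Chtop, an adaptor that also binds methyltransferases, was at 10.8, 11.4 and 12.4 CPM in mutant and 12.6, 13.3 and 14.7 CPM in wild-type libraries of days 1, 2 and 3. The mutant value was lower on each day by nearly the same log2 ratio (-0.23, -0.23 and -0.24), and the adjusted p was 0.211 without and 0.0247 with the block by edgeR (0.198 with the block by DESeq2). Zc3h11a, a zinc finger protein of the TREX complex, was at 16.6, 12.1 and 14.2 CPM in mutant and 21.8, 14.97 and 16.4 CPM in wild-type libraries. The mutant library of day 1 lay above the wild-type libraries of the other days, and the adjusted p was 0.16 without the block, 0.0011 with it and 0.0398 by DESeq2 with it. Of 50-base windows of Zc3h11a transcripts, 83.5% also occur in other annotated genes, chiefly the overlapping model Gm38394, so its count is uncertain. Zbed6, a gene that overlaps it on the same strand, fell (log2 fold change -0.53, edgeR adjusted p = 0.0446).

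The helicase genes Ddx39b, also known as UAP56, and Ddx39, its close relative, did not pass with or without the block. Ddx39b was at 7.08, 6.70 and 7.86 CPM in mutant and 7.15, 7.61 and 10.2 CPM in wild-type libraries of days 1, 2 and 3 (log2 fold change -0.21, edgeR adjusted p = 0.394). Ddx39 was at 2.72, 2.98 and 4.26 against 3.32, 2.79 and 3.78 CPM (log2 fold change 0.01, 95% interval -0.42 to 0.43). Exons of Ddx39 share 17.4% of their bases with Adgre5 on the other strand, a gene with mean levels of 84.5 (mutant) and 87.5 CPM (wild type), so the count of Ddx39 is uncertain. The genotypes overlapped for Ddx39b and for Ddx39. Alyref, the adaptor that hands mRNA to the receptor, had -0.22 with within-day log2 ratios of 0.04, 0.18 and -0.73. The remaining adaptors Poldip3 (-0.15), Fyttd1 (-0.26) and Sarnp (-0.40) each had a lower mutant value on every day, with overlapping groups. Of the Sarnp windows of 50 bases, 53.1% also occur in the gene model Gm6563. Zc3h14 was at 53.0, 57.3 and 54.4 CPM in mutant and 52.9, 53.9 and 43.7 CPM in wild-type libraries, with the wild-type library of day 3 the lowest (log2 fold change 0.13, edgeR adjusted p = 0.48).

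TREX-2 members had values in both directions. Eny2, a small subunit shared with a histone-modifying complex, was at 0.708, 1.39 and 1.00 CPM in mutant and 1.55, 1.79 and 1.55 CPM in wild-type libraries of days 1, 2 and 3. Every mutant library was below every wild-type library, the log2 fold change was -0.66 (SE 0.26, edgeR adjusted p = 0.0799), and it passed with the block (0.0103 by edgeR, 0.195 by DESeq2) and without mutant replicate 2 (0.033). Cetn2, a centrin that also serves centrioles and DNA repair, was at 187, 182 and 156 CPM in mutant and 159, 166 and 127 CPM in wild-type libraries. Mutant was higher within each day, yet the mutant library of day 3 lay below the wild-type libraries of the other days. The log2 fold change of Cetn2 was 0.21 (SE 0.12), with an adjusted p of 0.244 without the block, 0.00383 with it and 0.00133 by DESeq2 with it. Mcm3ap, the scaffold of TREX-2, was at 4.25, 4.53 and 4.38 CPM in mutant and 2.63, 3.12 and 4.75 CPM in wild-type libraries. The wild-type library of day 3 was the highest of the 6, and the log2 fold change was 0.31 (edgeR adjusted p = 0.294, and 0.0462 with the block, 0.32 by DESeq2 with it). It passed without wild-type replicate 3 (log2 fold change 0.61, adjusted p = 0.0227) and without day 3 (0.62, adjusted p = 0.0150). Cetn3 (-0.28) and Pcid2 (-0.01) did not pass either fit.

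At the outer face of the pore, Gle1 rose. Gle1 (Entrez 74412, chromosome 2, 29935409 to 29959432) was at 13.3, 12.6 and 10.9 CPM in mutant and 9.12, 9.81 and 7.94 CPM in wild-type libraries of days 1, 2 and 3. All mutant libraries lay above all wild-type libraries. The means were 12.3 ± 1.27 and 8.96 ± 0.944 CPM (SD, n = 3 each), a rise of 37.1% and a log2 fold change of 0.46 ± 0.14 (SE, edgeR adjusted p = 0.0209, and 8.29e-06 with the block). The call of Gle1 ended without mutant replicate 1 (0.179), mutant replicate 2 (0.143), wild-type replicate 1 (0.0769), wild-type replicate 3 (0.0601), day 1 (0.24) or day 2 (0.166). It also ended with library size alone (0.0544) and with a filter at 10 CPM on the mean level (0.0524).

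Its partner helicase genes did not pass the genotype-only fit. Ddx19a was at 2.98, 3.63 and 3.78 CPM in mutant and 4.37, 5.11 and 4.23 CPM in wild-type libraries, without overlap (log2 fold change -0.40, SE 0.17, edgeR adjusted p = 0.111). It passed with the block (0.0129 by edgeR, 0.199 by DESeq2) and without day 3 (0.0453). Ddx19b was at 1.42, 0.898 and 1.30 against 1.12, 1.46 and 1.45 CPM, with within-day log2 ratios of 0.34, -0.70 and -0.16. The run of 275 bases shown above is shared by these genes, so how their reads were divided is uncertain.

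In the cap-binding group, Ncbp2 fell. Its protein is the subunit that grips the cap itself. Ncbp2 (Entrez 68092, chromosome 16, 31948546 to 31958472) was at 1.75, 1.76 and 1.19 CPM in mutant and 2.90, 3.53 and 2.81 CPM in wild-type libraries of days 1, 2 and 3. The groups were well apart, with within-day log2 ratios of -0.73, -1.01 and -1.24. The means were 1.57 ± 0.328 and 3.08 ± 0.395 CPM (SD, n = 3 each), and the log2 fold change was -0.97 ± 0.22 (SE, 95% interval -1.43 to -0.52, edgeR adjusted p = 0.00262). Ncbp2 was called in all 18 alternatives that tested it, with the highest adjusted p at 0.0249. It rested on 32 to 87 counts per library, and 5.68% of its exonic bases overlap Senp5 on the other strand, whose own log2 fold change was -0.10.

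The other cap-linked genes did not pass either fit. Ncbp1, the large subunit that holds Ncbp2 on the cap, was at 2.24 to 2.93 CPM in mutant and 3.05 to 4.03 CPM in wild-type libraries, without overlap. Its log2 fold change was -0.35 (95% interval -0.75 to 0.06, edgeR adjusted p = 0.227). Srrt, also called ARS2, which bridges the cap-binding complex to export or decay, was likewise apart, at 3.69 to 4.08 against 4.39 to 4.71 CPM (log2 fold change -0.26, edgeR adjusted p = 0.283). Ncbp3, an alternative cap-binding partner, and Zc3h18, which links the cap to the exosome, had overlapping groups, with 95% intervals of the log2 fold change of -0.44 to 0.44 and -0.22 to 0.36. Whether Ncbp2 differs from Ncbp1 in its change was not tested.

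**Figure D4:**
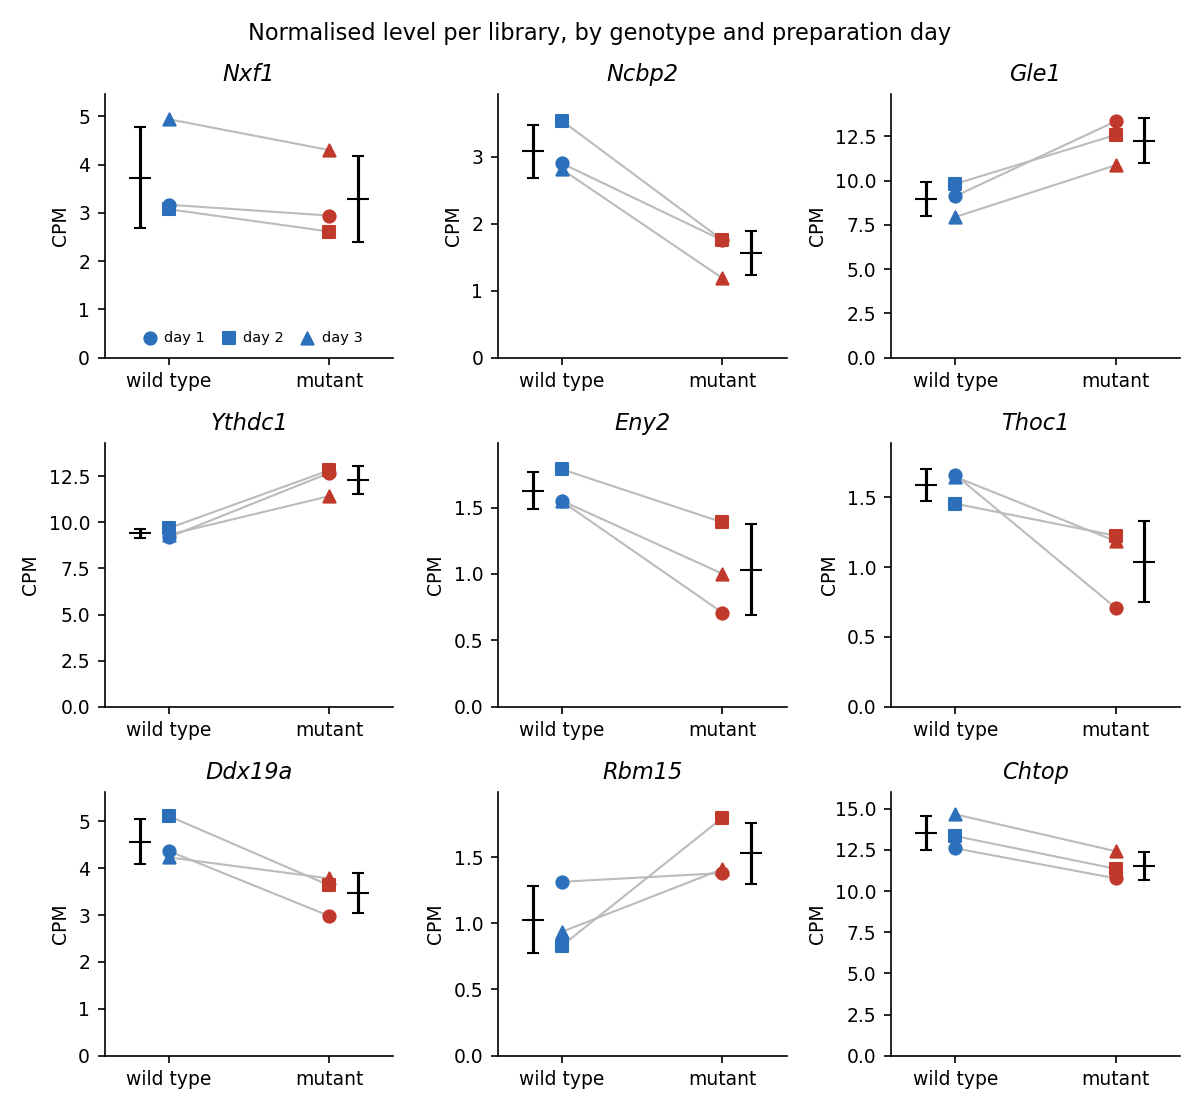
Level in CPM (y axis) of 9 members in each library by genotype (x axis), blue for wild type and red for mutant, with lines joining the libraries of 1 day and black bars giving mean and SD of 3 libraries. Genotypes are apart for every gene shown except Nxf1.

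Among genes linked to the RNA mark m6A, Ythdc1 rose. Ythdc1, the nuclear reader of the mark (Entrez 231386, chromosome 5, 86803980 to 86836659), was at 12.7, 12.8 and 11.4 CPM in mutant and 9.20, 9.69 and 9.33 CPM in wild-type libraries of days 1, 2 and 3. The groups did not overlap, at means of 12.3 ± 0.770 and 9.41 ± 0.252 CPM (SD, n = 3 each). The rise was 30.8%, a log2 fold change of 0.39 ± 0.13 (SE, edgeR adjusted p = 0.0323, and 0.000173 with the block). The call of Ythdc1 ended without mutant replicate 1 (0.198), mutant replicate 2 (0.235), wild-type replicate 1 (0.135), wild-type replicate 2 (0.113), day 1 (0.316) or day 2 (0.339). The call also ended with upper-quartile factors (0.0518), library size alone (0.159), TMM without the 10 most abundant genes (0.0659), DESeq2 (0.0546) and the filter at 10 CPM (0.126). Of its 50-base windows, 17.5% also occur in the overlapping model Gm43055.

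Rbm15 and Rbm15b guide the enzyme that writes this mark. Rbm15 was at 1.38, 1.797 and 1.41 CPM in mutant and 1.31, 0.831 and 0.937 CPM in wild-type libraries. The groups did not overlap but nearly touched on day 1, where the log2 ratio was 0.07, beside 1.11 on day 2. The log2 fold change of Rbm15 was 0.57 (95% interval 0.03 to 1.10, edgeR adjusted p = 0.125), and it passed with the block (0.0388 by edgeR, 0.329 by DESeq2). Rbm15b had -0.30 with overlapping groups, lower on all 3 days (edgeR adjusted p = 0.41).

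The exon junction core genes had similar values, at log2 fold changes of -0.33 in Magoh, -0.40 in Rbm8a and -0.41 in Casc3. None of the 3 passed without the block (edgeR adjusted p = 0.208, 0.193 and 0.141), though Casc3 had an unadjusted p of 0.0451, all passed with it by edgeR (0.0456, 0.0417 and 0.0201) and none with it by DESeq2 (0.327, 0.378 and 0.249). Magoh and Rbm8a encode the dimer that locks the complex on RNA. Magoh was at 3.06, 3.76 and 3.37 CPM in mutant and 3.59, 5.03 and 4.23 CPM in wild-type libraries of days 1, 2 and 3. Rbm8a was at 2.54, 2.04 and 2.37 against 2.28, 3.20 and 3.68 CPM, so that mutant was higher on day 1 and lower on the other days. Casc3, a peripheral stabiliser of the core, was at 2.42, 2.57 and 3.34 against 4.06, 3.16 and 3.84 CPM. All 3 genes had overlapping groups.

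Acin1, Pnn and Rnps1, which form the ASAP and PSAP complexes around the core, did not pass either fit. Acin1 was nearly level at 15.5 to 16.8 CPM in mutant and 15.8 to 17.7 CPM in wild-type libraries (log2 fold change -0.03, 95% interval -0.28 to 0.21). Pnn was at 1.59 to 2.08 against 2.20 to 2.58 CPM without overlap (-0.36, edgeR adjusted p = 0.251), and Rnps1 had -0.20 with overlapping groups. Of the 50-base windows of Rnps1, 28.7% also occur in Gm9825, so its count is uncertain.

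**Figure D5:**
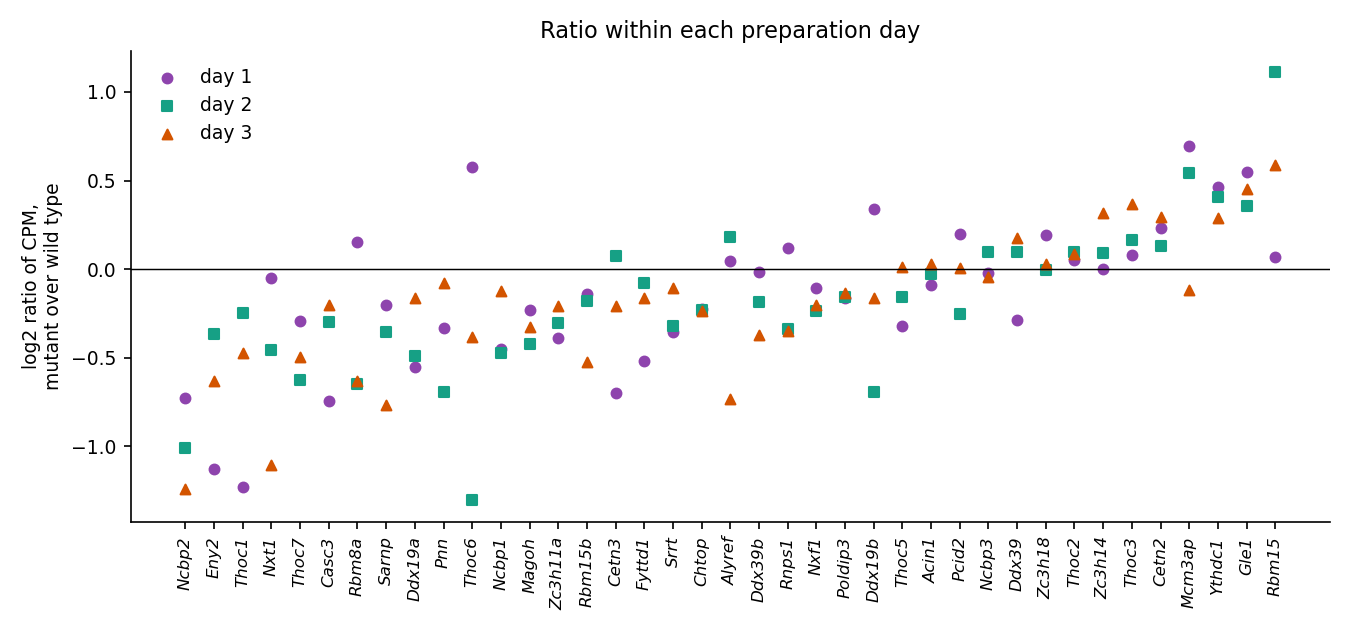
Log2 ratio of CPM, mutant over wild type (y axis), within each of the 3 preparation days for the 39 members (x axis), ordered by fitted log2 fold change. All 3 days lie below 0 for 19 members, Ncbp2 among them, and above 0 for 7, Gle1 and Ythdc1 among them.

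A further list held other genes of the pathway, of which 20 of 27 symbols had counts. Of these 20, 3 fell and 0 rose (edgeR, 15% called, beside 22.1% of all genes). At an unadjusted p of less than 0.05, 4 were lower and 0 higher. By limma-voom 3 were lower and 0 higher, and by DESeq2 1 was lower and 0 higher. The shares of all genes for the unadjusted, limma-voom and DESeq2 counts are not reported here. With the block edgeR called 4 lower and 2 higher, the additions being Upf3b (lower) and Sem1 and Smg1 (higher). These 6 are 30% of the 20, beside 40% of all genes in that fit. Sap18, the remaining subunit of ASAP and PSAP, fell from 5.59 ± 1.23 to 3.46 ± 0.401 CPM (SD, n = 3 each), a log2 fold change of -0.69 (edgeR adjusted p = 0.00972). It was lost without day 2 (0.099) and without wild-type replicate 2 (0.0549). Phax, the adaptor for export of small nuclear RNA that binds the cap-binding complex, fell from 1.38 ± 0.192 to 0.755 ± 0.209 CPM (log2 fold change -0.87, edgeR adjusted p = 0.0281). Srsf1, a splicing factor that can recruit the export receptor, had -0.40 (edgeR adjusted p = 0.0299). Phax was lost without mutant replicate 1 (0.131) or 2 (0.0501), wild-type replicate 2 (0.0665) or 3 (0.0727), day 1 (0.11) or day 2 (0.129). It was also lost with library size alone (0.0687), by DESeq2 (0.0703) and by DESeq2 with the block (0.113). Srsf1 was lost without mutant replicate 2 (0.0799) or 3 (0.0886), wild-type replicate 1 (0.0878), day 1 (0.15), day 2 (0.119) or day 3 (0.053), and by DESeq2 (0.0507), though not by DESeq2 with the block (0.0155). Eif4a3, the helicase at the heart of the exon junction complex, was at 2.37 to 3.12 CPM in mutant and 2.94 to 3.65 CPM in wild-type libraries (log2 fold change -0.35, edgeR adjusted p = 0.216). The nonsense-mediated decay factors Upf1 and Upf2, which read exon junction complexes, had -0.11 and -0.01.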

How the data were processed

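The authors deposited counts of reads per gene, as whole numbers beside a gene length, per the file headers. The submitters' processing notes name CASAVA 1.8.2, Subread, featureCounts and mm10, with no settings. Whether reads with several matches were counted, and with which strand setting, is thus not stated. The libraries themselves hold no strand information, per the labels' kit. All 9822 genes exceed 0.5 CPM in 3 or more libraries, so scarce genes had been removed. Of the Entrez identifiers, 9636 were named from RefSeq (GRCm38.p6, the assembly of mm10), where Ddx39 appears as Ddx39a. Exons, transcripts and the printed sequences are those of GENCODE M21 (GRCm38).

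Genotypes were compared by edgeR 4.0.16 in R 4.3.3 (TMM, robust quasi-likelihood, two-sided, genotype as the only term). filterByExpr removed 0 genes. Alternatives were other scalings, limma 3.58.1 (voom), DESeq2 1.42.0, other filters and thresholds, omission of libraries or days, and the day as a block. The batch number of the labels is the preparation day and pairs the libraries. Over all genes, deviations from the group means had correlations of 0.431, 0.271 and 0.482 for libraries of the same day, and the highest between different days was -0.0104. Deviations within a group sum to 0 for each gene, so positive values for the same day go with negative ones between days in part by construction. Over the members alone the same-day correlations were -0.140, 0.281 and 0.524, and the highest between different days was 0.243. The members alone thus did not show the pairing on day 1, and their day 2 value was little above the highest between different days. Replicates differed beyond sampling noise (mean chi-square per gene at least 14.5). A replicate is a pool, and p-values cover the spread between pools only. The edgeR fits, with and without the block, were tested on simulated data. The simulated counts held no day effect, so they cannot show how the block fit behaves on libraries paired by day. Members and lists were chosen with earlier results of these data known. Values by library are given for Nxf1, for members called with or without the block, and for pairs of related genes. Those of Nxt1 and Zc3h14 are given beyond this rule, chosen after their values were seen. Most other members have ranges or fold changes, and related genes are named where called or as reference points of the pathway.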

Additional observations from a re-analysis of the deposited data

How the results depend on the processing

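Blocking by preparation day (the pairing of the labels), edgeR called 2164 genes higher and 1765 lower in place of 1266 and 900, members 5 and 9 in place of 2 and 1, and related genes 2 and 4 in place of 0 and 3. DESeq2 with the block called 3 members higher and 2 lower, and 1 related gene higher and 2 lower. Among the 9060 genes of that fit, 17.4% were higher and 10.1% lower. The edgeR block changed no call of a named member or related gene other than those given with the gene. Of the named markers, Itga2b and Gp1bb were not called without it and were higher with it (edgeR block adjusted p = 5.43e-05 and 0.00161). Upper-quartile factors, TMM without the 10 most abundant genes and DESeq2 without the block each called 1 member higher and 1 lower. Library size alone called 0 higher and 1 lower. Under it the members' median log2 fold change was -0.32, where all genes moved to -0.13. The shares of all genes called in these fits are not reported here, so these counts of members have no background. At a mean of at least 10 CPM, 8 members were tested among 3017 genes, of which 723 were higher. Of the 8 members, 0 were higher and 3 were lower (Chtop, Poldip3 and Zc3h11a), and the median of the 8 was -0.12. The share of the 3017 genes called lower is not reported here, so the 3 lower members have no background beside them. An adjusted p of 0.01 left 767 genes higher, 565 lower and 0 members higher, while Ncbp2 stayed lower (edgeR adjusted p = 0.00262). Without a block, DESeq2 called 1 related gene lower. The cause of these shifts was not tested. Leaving out 1 library or 1 day gave 485 to 1387 genes higher, 520 to 1002 lower, 0 to 3 members higher, 1 to 2 members lower, 0 to 2 related genes lower and a median of the members of -0.30 to -0.14. The difference in the members' share of counts, -0.000451 percentage points, ran from -0.00112 without day 2 to 0.000285 without day 3. Leaving out single libraries, chosen after seeing the data, gave -0.00136 (wild-type replicate 1) to 0.00104 (wild-type replicate 3), with a value above 0 also without mutant replicate 1 (0.00039). Depth limits the scarce members, since the median SE of the log2 fold change was 0.21 for the 28 under 5 CPM and 0.13 for the other 11.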
